A study of Mus musculus with 62 samples.

Results

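Long RNA of HT-22 cells was compared between an LNA against Hsf1 and a scramble LNA, in cells that were then exposed to amyloid beta. An LNA is a short antisense oligonucleotide with locked sugar rings, and HT-22 is a mouse cell line of hippocampal origin. The libraries were chosen by their titles alone: 3 libraries labelled anti-Hsf1 (anti-Hsf1 1 to 3) and 4 labelled as scramble control (scramble 1 to 4), which makes 7 of the 62 libraries of the series. Per the labels, the cells were at passage 4, and they took up the anti-Hsf1 LNA at 150 nM or the scramble LNA at 50 uM, the concentration as the labels state it, for 24 h. All 7 libraries then received 30 uM of the amyloid beta 1-42 peptide in DMSO. A further 7 libraries, 3 labelled anti-Hsf1 and 4 scramble, had the same LNAs followed by a peptide of the reverse sequence, 42-1, and serve here for comparison. The groups therefore differ in the concentration of the LNA as well as in its sequence, and the effects of these cannot be told apart. Nothing in the labels says that replicates came from separate cultures, so p-values measure the spread between these libraries only.

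Hsf1 is the transcription factor that drives the heat shock response. In unstressed cells it is held inactive by chaperones such as Hsp70, Hsp90 and the TRiC chaperonin. When misfolded protein occupies these chaperones, Hsf1 forms trimers, binds inverted GAA repeats called heat shock elements, and switches on the chaperone genes, so that its loss is usually read from their RNA. Amyloid beta 1-42 is the aggregating peptide of plaques in Alzheimer's disease. The title of the series concerns the processing of RNA from B2, a short repeat element, and only the long RNA was analysed here. Per the labels' protocols, ribosomal RNA was removed from the long RNA, which was sequenced as fragments. A level is given as TPM, the transcript abundance per length of transcript and per library.

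Relative depth ran from 0.724 to 2.60 over the 14 libraries, and each held between 20709 and 22923 genes above 0. Of 12 neuronal markers only Tubb3 and Eno2 reached a mean of 1 TPM, and 7 were at 0 in all 7 amyloid beta libraries, among them Rbfox3, Snap25 and Syt1. Fibroblast and mesenchyme markers reached it in 7 of 8 cases, and their summed level ran from 2969 to 5250 scaled TPM under scramble and from 3179 to 3475 in the libraries labelled anti-Hsf1. Of 8 microglial markers 4 were at 0 (P2ry12, C1qa, Tyrobp and Itgam) and only Tmem119 reached a mean of 1 TPM. Their sum ran from 8.96 to 55.0 scaled TPM under scramble and from 10.9 to 13.3 in the libraries labelled anti-Hsf1. Among the 14 libraries, 3 stood apart: scramble 3 and scramble 4 with amyloid beta, and scramble 4 with the reverse peptide. Their deviations from their group means correlated with each other across genes at 0.33, 0.56 and 0.58, and they were high in immediate-early genes, as described further on. No label sets them apart, and the lists below that moved with them are therefore also given without them.

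The first result was one of composition. Protein-coding genes held 54.3%, 51.7%, 61.8% and 58.0% of TPM in scramble 1 to 4, against 32.1%, 42.1% and 30.1% in anti-Hsf1 1 to 3. All 3 libraries labelled anti-Hsf1 lay below all 4 scramble libraries. The means were 56.5% ± 4.40 (SD, n = 4) and 34.8% ± 6.43 (SD, n = 3), and the two-sided exact permutation test gave p = 0.0571, the smallest that 3 against 4 libraries can give. With the reverse peptide the share was 48.1% to 55.7% under scramble and 48.7% to 52.1% in the libraries labelled anti-Hsf1, and these ranges overlapped. TPM has a near-fixed total per library, so a lower share of 1 class goes with a higher share of others. Such a share gives neither the number of cells nor the RNA per cell, which cannot be told apart in bulk libraries.

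**Figure D1:**
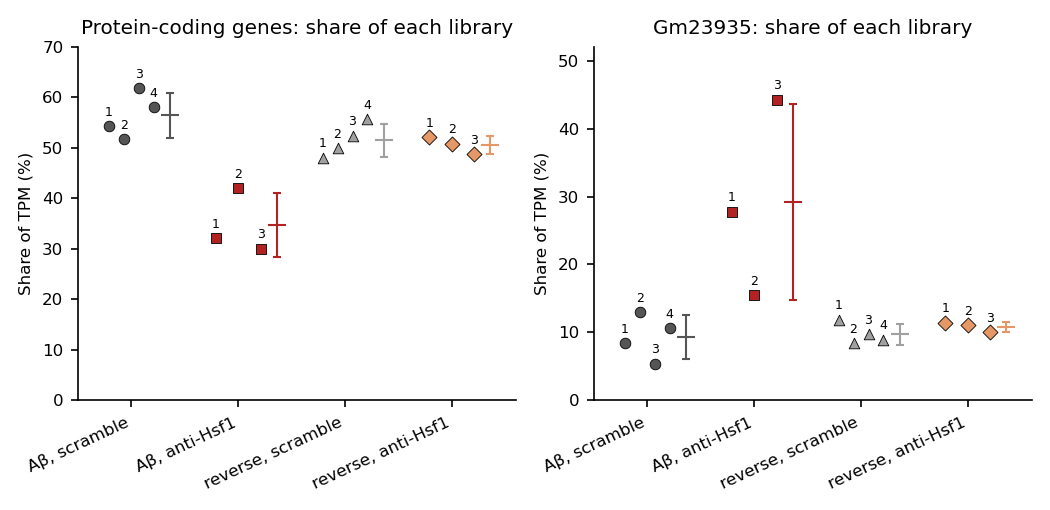
Share of TPM (%) held by protein-coding genes (left) and by Gm23935 (right) in each of the 14 libraries, with replicate numbers and the mean ± SD of each group. The protein-coding share of the 3 amyloid beta libraries labelled anti-Hsf1 was 30.1% to 42.1%, below every other library, and their Gm23935 share was 15.5% to 44.3%, above every other library.

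A difference of similar size in the other direction lay in a single short locus. Gm23935 (ENSMUSG00000076258), annotated by GENCODE M21 as a miRNA gene of 57 bases on GRCm38 at chr16:11144125-11144181, plus strand, lies in an intron of Zc3h7a on the opposite strand. It took 8.45%, 13%, 5.37% and 10.6% of TPM in scramble 1 to 4, and 27.8%, 15.5% and 44.3% in anti-Hsf1 1 to 3. The groups did not overlap, and the means were 9.37% ± 3.25 (SD, n = 4) and 29.2% ± 14.5 (SD, n = 3), a difference of 19.8 percentage points against -21.7 for protein-coding genes, with an exact permutation p of 0.0571 for each. Reverse peptide libraries lay between 8.42% and 11.9%.

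The sequences of this locus and of 3 of the 4 loci that passed the test are shown because these are near-identical copies. They were read from GRCm38 on the annotated strand, and capitals mark a base that differs from Gm23935.
Gm23935: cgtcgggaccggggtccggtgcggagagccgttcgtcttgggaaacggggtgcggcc
Gm24270: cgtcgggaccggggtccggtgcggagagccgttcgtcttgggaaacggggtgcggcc
Gm24187: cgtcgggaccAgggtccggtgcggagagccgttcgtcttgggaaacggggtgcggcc
Gm25911: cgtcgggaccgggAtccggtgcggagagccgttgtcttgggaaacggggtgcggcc
Counted from 1 at the 5′ end, Gm24187 differs from Gm23935 by G11A alone, and Gm25911 by G14A and 1 missing base. Gm24270 is identical to Gm23935, and so is Gm24245 at chr4:139338304-139338360. The chromosomes hold 3 exact copies of the Gm23935 sequence, and reads of such copies may be divided among them by the authors' counting, so the levels of single copies are uncertain. No 15-base word of these 4 sequences occurs in the annotated ribosomal RNA locus at chr17:39843013-39848827. That search covered this annotated stretch alone. Whether the sequences occur in ribosomal RNA outside it was not tested. These libraries measure fragmented long RNA over the annotated loci and not mature miRNAs.

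Across genes, the comparison was read in 2 ways. On TPM as deposited, 8777 of 16950 genes (51.8%) were lower and 26 (0.153%) higher in the libraries labelled anti-Hsf1 by limma at an adjusted p below 0.05, and the median log2 change of all genes was -0.63. After median of ratios scaling, which sets the typical gene equal between libraries, that median was 0.00, 4 genes (0.0236%) were higher and 0 lower, and the 4 were also called on TPM as deposited. At an unadjusted p below 0.05 the scaled fit held 831 genes higher (4.9%) and 704 lower (4.15%). All changes below are log2 differences of scaled TPM plus 1, libraries labelled anti-Hsf1 minus scramble, unless stated.

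**Figure D2:**
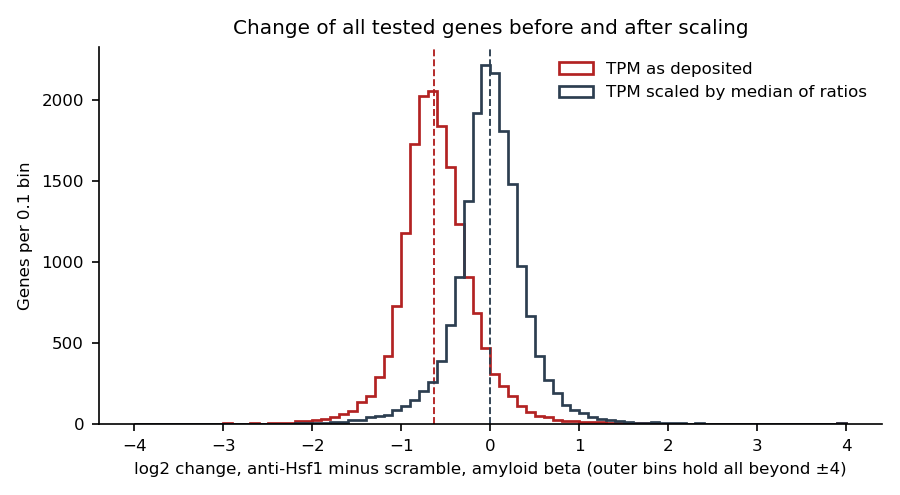
Number of genes per 0.1 bin of log2 change, anti-Hsf1 minus scramble with amyloid beta, over 16950 genes, on TPM as deposited (red) and after scaling (dark), with dashed lines at the medians. The whole distribution moves from a median of -0.63 to 0.00 with the scaling.

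The 4 genes that rose were Gm25911, Mir6236, Gm24187 and Gm24270, all annotated as miRNA genes. Each had a limma adjusted p of 0.0425. These calls were not stable: over 18 alternatives they held in 10, 6, 7 and 6, with adjusted p-values up to 0.257. None of the 4 was called without scramble 1, scramble 3, scramble 4, anti-Hsf1 1 or anti-Hsf1 2. Gm25911 (ENSMUSG00000088246, chr1:167340369-167340424, minus strand, no overlapping gene) stood at 1.95, 10.6, 0.903 and 0.762 scaled TPM in scramble 1 to 4 and at 478, 173 and 390 in anti-Hsf1 1 to 3. Every library labelled anti-Hsf1 was above every scramble library, and the change was 6.61 (SE 0.856). Gm24187 (ENSMUSG00000088609, chr13:9834469-9834525, minus strand, no overlapping gene) stood at 21.7, 38.6, 6.11 and 6.05 scaled TPM against 1985, 598 and 1388, a change of 6.34 (SE 0.921). Gm24270 (ENSMUSG00000076281, chr9:56223715-56223771, minus strand, in an intron of Peak1 on the same strand) stood at 69.6, 117, 13.8 and 29.4 scaled TPM against 3066, 939 and 3009, a change of 5.54 (SE 0.785). In these copies anti-Hsf1 2 was the lowest of its group, as it was for Gm23935.

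Mir6236 (ENSMUSG00000098973) is not among these copies. It stood at 3.49 scaled TPM in scramble 1 and was listed at 0 in scramble 2, 3 and 4, against 321, 80.2 and 69.3 in anti-Hsf1 1 to 3. Its order within the group differed from that of the copies, with anti-Hsf1 1 highest. The fitted change of 6.39 (SE 0.91) depends on the pseudocount of 1, since 3 libraries were at 0.

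None of the 4 genes was called with the reverse peptide, where their changes were -0.42 for Gm25911, -0.27 for Mir6236, -0.59 for Gm24187 and -0.64 for Gm24270. Gm24187, for instance, stood at 77.6, 127, 81.0 and 5.32 scaled TPM with scramble and 21.3, 23.2 and 59.2 in the libraries labelled anti-Hsf1. The difference between peptides was 7.03, 6.66, 6.93 and 6.19 for Gm25911, Mir6236, Gm24187 and Gm24270, with limma adjusted p-values of 0.358, 0.407, 0.407 and 0.358, so it did not pass. In all 3 copies the scramble libraries that stand apart were the lowest of their groups under either peptide. Without the 3 libraries that stand apart, Gm25911, Gm24187 and Gm24270 were called again, at 5.76, 5.30 and 4.49. Their differences between peptides then passed (7.05, 6.86 and 5.81, limma adjusted p 0.0401, 0.0401 and 0.0443). This fit was chosen after the values were seen, and it keeps scramble 1 and 2 alone as scramble libraries with amyloid beta. Mir6236 then had a change of 5.83 and an adjusted p of 0.228.

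The copies Gm23935, the most abundant, and Gm24245 did not pass the scaled test. Gm23935 had a change of 2.31 (SE 0.40, adjusted p 0.122), and its groups did not overlap, which 4.31% of all genes did in the higher and 4.21% in the lower direction. On TPM as deposited it rose by 1.58 (adjusted p 0.00257). Gm24245, identical in sequence and named after its values were seen, stood at 14.5, 17.8, 1.55 and 11.8 scaled TPM against 24.2, 14.5 and 111, and these ranges overlapped (1.84, SE 0.861, adjusted p 0.544).

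CT010467.1 (ENSMUSG00000106106), the annotated ribosomal RNA at chr17:39846353-39848827, was also named after its values were seen. It stood at 7086, 5719, 5277 and 4294 scaled TPM under scramble and at 90826, 34851 and 10574 in the libraries labelled anti-Hsf1. It overlaps exons of AY036118 on the same strand and Gm42418 on the other, so its reads may be shared. The groups did not overlap, and the change was 2.55 (SE 0.51, adjusted p 0.216), against -0.54 with the reverse peptide. Anti-Hsf1 1 was highest here and anti-Hsf1 3 lowest, while anti-Hsf1 3 was highest in Gm23935. Ribosomal RNA depletion is a library step, and its part in these levels was not tested.

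**Figure D3:**
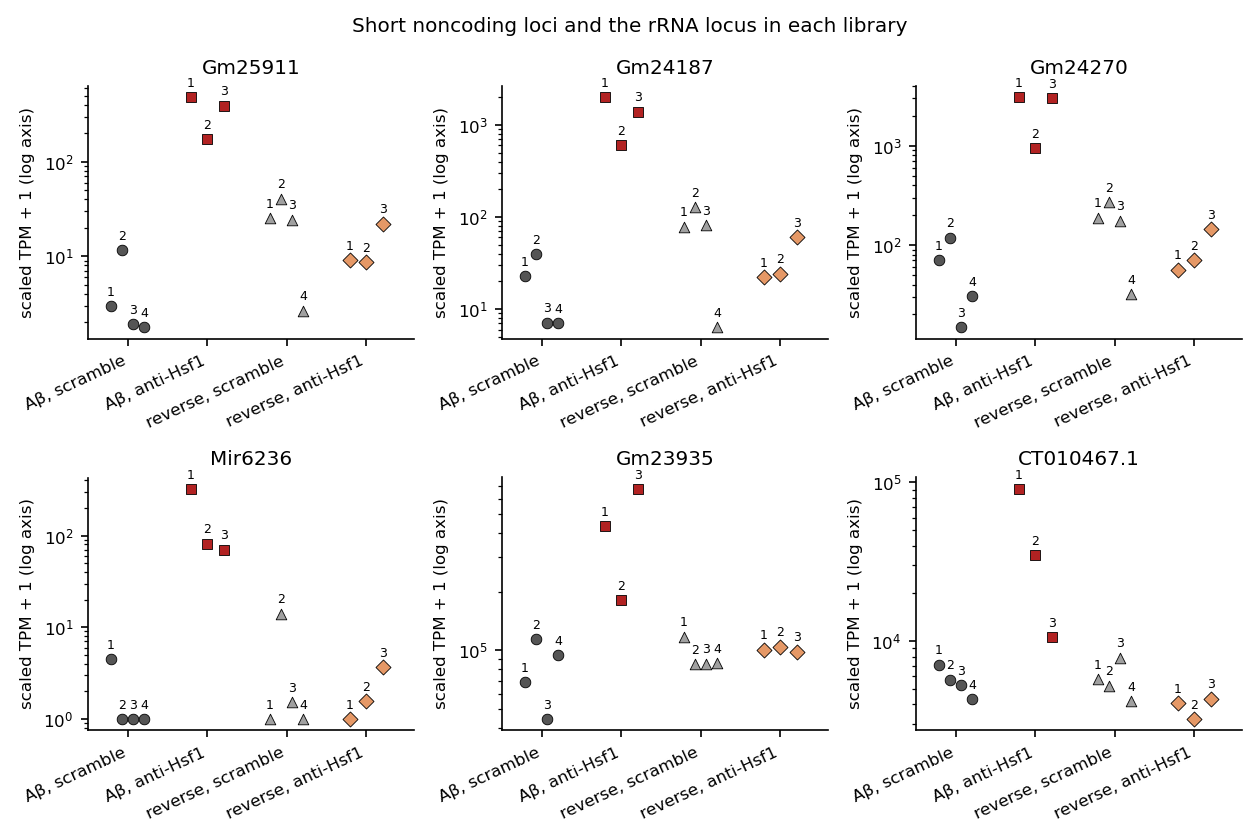
Scaled TPM plus 1 (log axis) of the 4 called loci, Gm23935 and CT010467.1 in each of the 14 libraries, with replicate numbers. In all 6 panels the 3 amyloid beta libraries labelled anti-Hsf1 lie above the 4 scramble libraries, for Gm25911 at 173 to 478 against 0.762 to 10.6 scaled TPM.

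Abundant noncoding RNAs of stable structure, such as the 7SL, 7SK, RNase P and mitochondrial ribosomal RNAs, were read as a list of 23, of which 20 were tested. Also on it were Lars2, a protein-coding gene, and Gm42418, a long noncoding RNA that overlaps CT010467.1. This list holds Gm23935, Gm24187 and Gm24270, already described, and its counts include them. Gm24187 and Gm24270 were the only 2 called on scaled TPM, and 19 of the 20 had a positive change. In the higher direction 6 did not overlap, those 3 copies among them, and 0 in the lower. Of all genes 4.31% and 4.21% did so. The median change of the list was 0.96, against 0.00 over all genes, -0.38 with the reverse peptide and 0.74 without the 3 libraries that stand apart. mt-Rnr1, the mitochondrial 12S ribosomal RNA, held 4.57%, 4.42%, 2.00% and 2.66% of TPM in scramble 1 to 4 and 9.20%, 9.26% and 4.85% in anti-Hsf1 1 to 3. Those shares did not overlap, and the change of mt-Rnr1 after scaling was 1.94 with an adjusted p of 0.24. With the reverse peptide its share was 3.42% to 10.7% under scramble and 5.44% to 8.70% in the libraries labelled anti-Hsf1, and these ranges overlapped. mt-Rnr2, the other mitochondrial ribosomal RNA, held 7.12%, 7.45%, 4.72% and 5.81% in scramble 1 to 4 with amyloid beta. It held 7.42%, 8.02% and 5.94% in anti-Hsf1 1 to 3, which overlapped.

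Hsf1 (ENSMUSG00000022556, chr15:76477422-76501913), the target of the LNA, was lower on TPM as deposited and overlapped after scaling. As deposited it stood at 60.3, 70.7, 77.1 and 79.99 TPM in scramble 1 to 4 and at 27.7, 44.0 and 30.8 TPM in anti-Hsf1 1 to 3. These did not overlap, and the change was -1.07 (limma adjusted p 0.00111, exact permutation p 0.0571). Scaled, it stood at 49.0, 62.0, 64.0 and 71.1 against 43.3, 51.4 and 46.7, and anti-Hsf1 2 was above scramble 1. The scaled change was -0.37 (SE 0.144, 95% interval -0.68 to -0.06, adjusted p 0.515, exact permutation p 0.114), and -0.22 without the libraries that stand apart. Against protein-coding genes alone it was -0.38 with an exact permutation p of 0.0571. With the reverse peptide Hsf1 stood at 53.5, 43.2, 62.0 and 56.5 scaled TPM under scramble and at 52.7, 43.2 and 49.1 in the libraries labelled anti-Hsf1, a change of -0.15. The difference between peptides was -0.22 (SE 0.203, unadjusted p 0.294). The size of the knockdown thus depended on the scaling, and the groups are called by their labels.

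Of the other heat shock factors and their inhibitor, Hsf2, Hsf4 and Hsbp1, none was called on scaled TPM, and all were called lower on TPM as deposited. Hsbp1, which binds Hsf1 trimers and opposes their activity, stood at 72.1, 73.7, 70.5 and 73.3 scaled TPM under scramble and at 90.0, 81.7 and 75.4 in the libraries labelled anti-Hsf1. The groups did not overlap, by a small margin, and the change was 0.18 (SE 0.105, adjusted p 0.565).

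The chaperone genes, the best known targets of Hsf1, gave 0 calls by limma on scaled TPM in any of 7 lists, 70 genes tested in all. At an unadjusted limma p below 0.05, 1 of the 70 was higher, where 4.9% of all genes were higher and 4.15% lower. The medians of the 7 lists lay between -0.22 and 0.12. All genes together had a median of 0.00, so these lists lay close to the typical gene. On TPM as deposited 62 of the 70 were called lower, where 66.1% of all protein-coding genes were.

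Among the cytosolic Hsp70 chaperones, which bind unfolded chains, 5 of 8 had a positive and 3 a negative change (median 0.12, 0.09 with the reverse peptide and -0.02 without the 3 libraries). Hspa8, the constitutive member, stood at 767, 831, 853 and 910 scaled TPM in scramble 1 to 4 and at 741, 744 and 729 in anti-Hsf1 1 to 3. It was the only member whose groups did not overlap, by a narrow gap, with a change of -0.18 (SE 0.102, adjusted p 0.564). The reverse peptide gave the same order, with 776, 782, 782 and 900.0 under scramble against 709.6, 735 and 711. The stress-inducible Hspa1a and Hspa1b, near-identical genes named after their values were seen, are the usual readout of Hsf1 activity. Hspa1a stood at 9.14, 13.2, 6.99 and 6.30 scaled TPM against 10.3, 10.1 and 11.8, and Hspa1b at 23.9, 29.9, 23.0 and 17.9 against 28.5, 26.4 and 32.7. Both overlapped, with changes of 0.29 (95% interval -0.41 to 0.99) and 0.31 (95% interval -0.21 to 0.82). Counting may divide reads between this pair.

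Hsp90 and its co-chaperones fold kinases and hormone receptors and hold Hsf1 itself. Of 11, 5 changes were positive and 6 negative (median -0.01, and 0.14 without the 3 libraries). Hsp90ab1 stood at 897, 1039.9, 1206 and 1194 scaled TPM against 1089, 1079 and 1036, a change of -0.01 (95% interval -0.29 to 0.27). Scramble 1 was lower and scramble 3 and 4 higher than all libraries labelled anti-Hsf1. Hsp90aa1, the inducible form, stood at 229.8, 268, 309 and 319 against 301, 241 and 259 (-0.07). Stip1, which hands clients from Hsp70 to Hsp90, was the one member that did not overlap, at a change of 0.11.

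The Hsp40 list, whose members deliver clients to Hsp70, had 4 positive and 8 negative changes (median -0.12, and 0.04 without the 3 libraries). Dnajb1, a strongly inducible member named after its values were seen, stood at 38.6, 39.8, 68.6 and 80.2 scaled TPM against 47.5, 45.0 and 46.3, with the 3 libraries between the low and the high scramble pair. Small heat shock proteins, which hold aggregates, had 2 positive and 2 negative changes among 4 tested (median 0.00, and 0.15 without the 3 libraries). Cryab stood at 34.0, 38.6, 41.6 and 38.6 scaled TPM against 48.5, 38.8 and 33.9.

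In the mitochondrial chaperones 9 of 9 changes were negative (median -0.15), and in the TRiC chaperonin, which folds actin and tubulin, 8 of 8 (median -0.22). In both lists scramble 3 and 4 were the high libraries. Hspd1, the mitochondrial Hsp60, stood at 189, 188, 268 and 293 scaled TPM in scramble 1 to 4 and at 199, 209.9 and 185 in anti-Hsf1 1 to 3. Tcp1, a TRiC subunit, stood at 234, 221, 316 and 309 against 229, 229 and 244. Without the 3 libraries that stand apart both medians turned positive, to 0.07 and 0.06, with 6 of 9 and 5 of 8 positive. Members of neither list had groups that did not overlap.

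The endoplasmic reticulum chaperones and unfolded protein response genes had 13 of 18 negative changes (median -0.16, and 0.02 without the 3 libraries). Calr, a calcium-binding lectin chaperone, stood at 413, 455, 518 and 527 scaled TPM against 452, 433 and 443. Canx, its membrane-bound counterpart, stood at 406, 392, 471 and 487 against 389.96, 391 and 371, which did not overlap (-0.19, adjusted p 0.587). Of the 18 genes 1 did not overlap in the higher and 2, Canx among them, in the lower direction, against 4.31% and 4.21% of all genes.

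**Figure D4:**
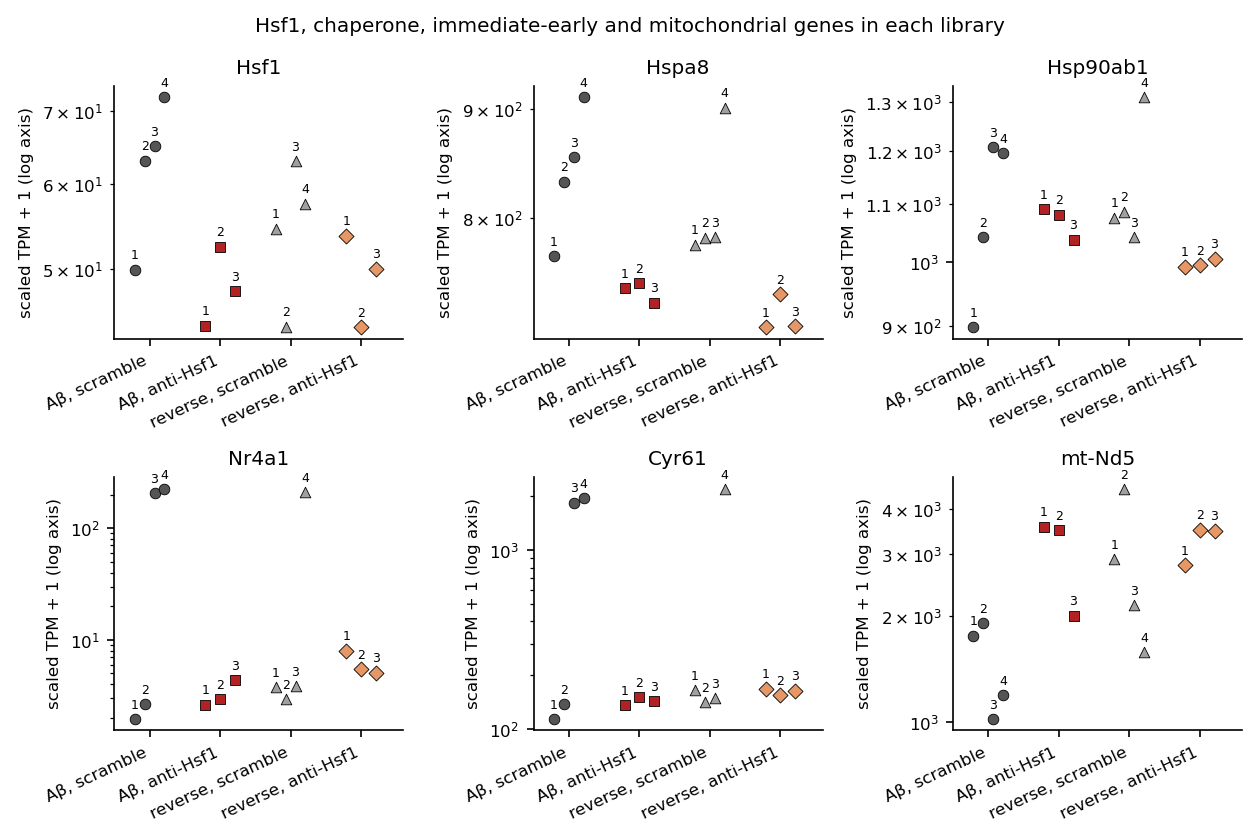
Scaled TPM plus 1 (log axis) of Hsf1, Hspa8, Hsp90ab1, Nr4a1, Cyr61 and mt-Nd5 in each of the 14 libraries, with replicate numbers. Hsf1 and Hsp90ab1 overlap between the LNAs, and Nr4a1 and Cyr61 are high in 3 scramble libraries only, at 1842 scaled TPM or more for Cyr61 against 149 or less in the libraries labelled anti-Hsf1 with amyloid beta.

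Heat shock elements were looked for in the 250 bases before the start of the cytosolic, small and mitochondrial chaperone genes, TRiC and the endoplasmic reticulum left aside, in RefSeq promoters of GRCm38.p6, since the chaperone lists were chosen as targets of Hsf1. The cores searched were GAANNTTC and TTCNNGAA, each its own reverse complement. Of these 48 genes 40 had a promoter entry (Hspa8, Hsp90aa1 and Hsp90ab1 were among those that did not), and 10 of these (25%) held a core, against 3489 of 27025 promoters (12.9%) and 927 of the 9234 tested genes with a promoter (10%). Among the 6 most abundant genes with an entry, Hspd1, Hspa4, Stip1 and Dnajc7 held none, and Hsph1 and Fkbp4, shown here with the core in capitals, held 1 each, at base -33 and base -151 from the start. A match of these letters is a description and not a bound site.
Hsph1 (chr5:149636337-149636586, minus strand): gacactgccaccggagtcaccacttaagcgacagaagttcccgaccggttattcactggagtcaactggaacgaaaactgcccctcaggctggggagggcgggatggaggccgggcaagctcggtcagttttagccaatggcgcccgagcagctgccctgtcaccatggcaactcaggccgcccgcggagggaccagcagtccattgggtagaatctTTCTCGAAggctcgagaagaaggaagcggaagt
Fkbp4 (chr6:128438657-128438906, minus strand): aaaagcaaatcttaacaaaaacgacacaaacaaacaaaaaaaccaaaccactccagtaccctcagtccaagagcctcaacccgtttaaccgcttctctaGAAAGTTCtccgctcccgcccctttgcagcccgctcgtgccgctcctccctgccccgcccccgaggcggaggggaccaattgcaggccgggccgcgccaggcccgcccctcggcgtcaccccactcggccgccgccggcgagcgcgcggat
Hsph1, an Hsp110 exchange factor of Hsp70, stood at 106, 101, 81.9 and 86.6 scaled TPM under scramble and at 99.3, 86.2 and 110.3 in the libraries labelled anti-Hsf1 (0.07). Fkbp4, a prolyl isomerase bound to Hsp90, stood at 72.2, 73.8, 114 and 111 against 80.3, 83.9 and 83.1 (-0.13). Both pairs of ranges overlapped.

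Immediate-early genes, the first to be transcribed when growth factors or calcium signal to the nucleus, had the most negative median of the lists, at -1.31 with 27 of 28 changes negative, 0 calls by limma and 0 at an unadjusted p below 0.05. Their summed level was 605, 695, 5256 and 5671 scaled TPM in scramble 1 to 4 and 702, 733 and 725 in anti-Hsf1 1 to 3. Only scramble 3 and 4 were high, and scramble 1 and 2 lay at or below the libraries labelled anti-Hsf1. With the reverse peptide the sums were 836, 723, 765 and 5796 under scramble and 829, 815 and 792 in the libraries labelled anti-Hsf1. Without the 3 libraries the median was 0.18, with 19 of 25 changes positive. No gene of the list had groups that did not overlap.

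Single members show the split. Cyr61, a secreted matrix protein, stood at 112, 136, 1842 and 1949 scaled TPM against 135, 149 and 142. Ctgf, its relative, stood at 20.9, 30.2, 808 and 817 against 27.9, 29.8 and 30.9. Nr4a1, an orphan nuclear receptor named with Fos and Fosl1 after the values were seen, stood at 0.958, 1.65, 205 and 223 against 1.62, 1.92 and 3.37. In each the pair of high scramble libraries exceeded the rest many times over. Fos stood at 3.17, 2.56, 36.8 and 66.8, and Fosl1 at 3.38, 3.41, 99.7 and 105, with all 3 libraries labelled anti-Hsf1 at 6.63 scaled TPM or less for either gene.

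The same libraries were high in other signalling lists, none of whose genes was called on scaled TPM. As deposited, 6 of 12 MAP kinase feedback, 16 of 18 cytoskeletal, 15 of 18 Atf4 and 11 of 13 NF-kB genes were called lower, where 66.1% of all protein-coding genes were. Feedback inhibitors of MAP kinase had a median of -0.85 with 12 of 12 negative, and summed to 161, 178, 930.2 and 1048 scaled TPM against 178, 182 and 189. Errfi1, an inhibitor of the EGF receptor, stood at 12.7, 14.3, 392 and 459 scaled TPM against 15.2, 18 and 13.7. Cytoskeletal and SRF target genes had a median of -0.70 with 17 of 18 negative, and summed to 2938, 3147, 11073 and 10754 against 3549, 3401 and 3390. Thbs1, a matrix glycoprotein, stood at 163, 180.2, 2585 and 2721 against 169.7, 162 and 164. Atf4 targets, the genes of the integrated stress response, had a median of -0.49 with 17 of 18 negative, and summed to 988, 1097, 2489 and 2264 against 1024, 1089 and 1099. Without the 3 libraries these 3 medians were 0.17, 0.12 and 0.09. NF-kB genes (median -0.35), collagens (-0.30), Nrf2 targets (-0.26), glycolysis (-0.22) and p53 targets (-0.19) likewise had medians of 0.18, 0.01, 0.06, 0.09 and 0.06 without them.

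**Figure D5:**
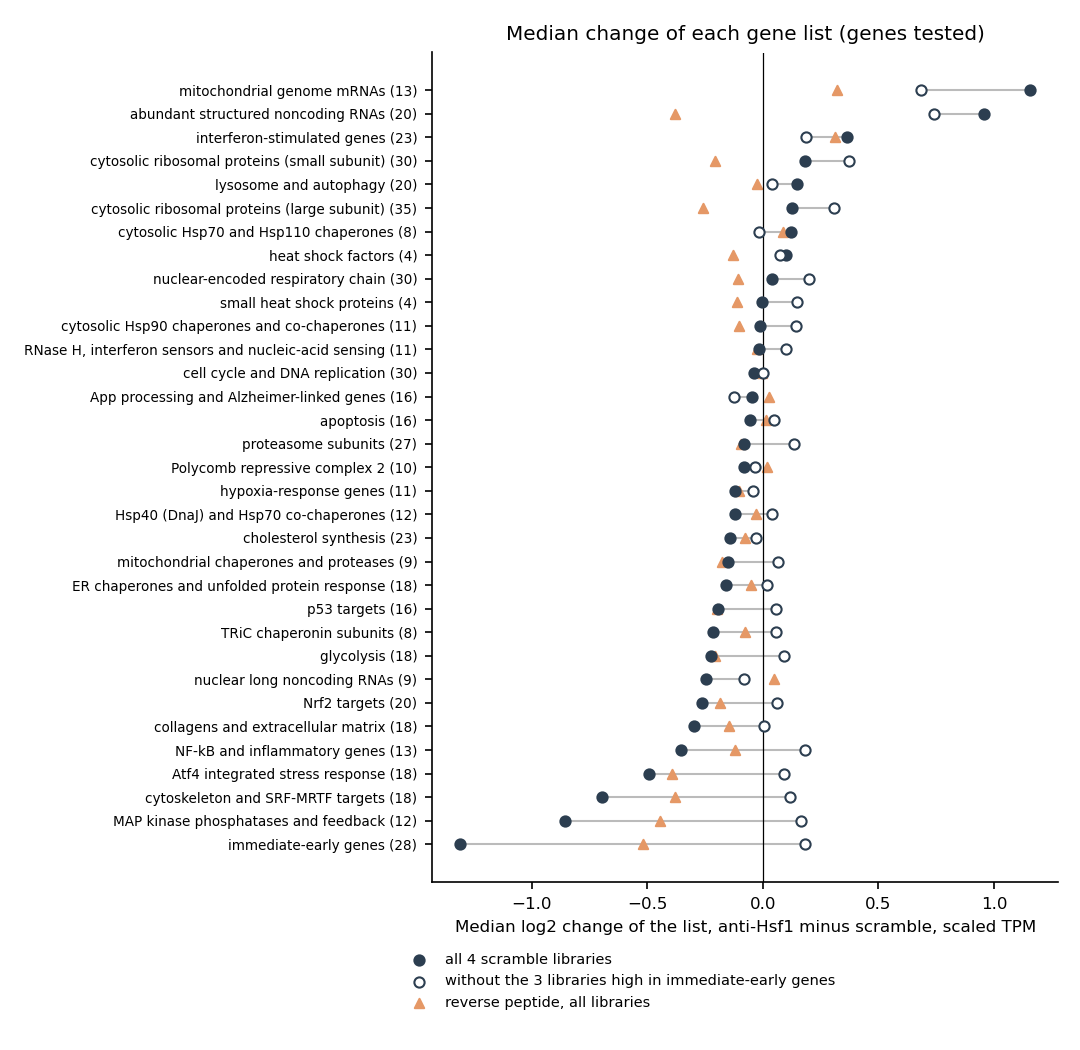
Median log2 change of each of 33 gene lists, with the number of genes tested, for all amyloid beta libraries (filled), without the 3 libraries high in immediate-early genes (open) and with the reverse peptide (triangles). Of 24 negative medians 19 are above 0 without the 3 libraries (immediate-early genes from -1.31 to 0.18), and that of mitochondrial mRNAs is 1.16 with and 0.68 without them.

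Messenger RNAs of the mitochondrial genome were higher in median with and without those libraries. All 13 changes were positive, with a median of 1.16, and limma called 0. In the higher direction 5 of 13 did not overlap (mt-Atp8, mt-Nd1, mt-Nd2, mt-Nd4 and mt-Nd5), where 4.31% of all genes did. At an unadjusted limma p below 0.05, 11 were higher, where 4.9% of all genes were. The summed level of these messenger RNAs was 34204, 34771, 19606 and 22487 scaled TPM in scramble 1 to 4 and 66502, 61602 and 35893 in anti-Hsf1 1 to 3. Anti-Hsf1 3 exceeded scramble 2 by a small margin. mt-Nd5, a complex I subunit named after its values were seen, stood at 1757, 1905, 1022 and 1192 against 3576, 3495 and 2001 (1.04, SE 0.337, adjusted p 0.454). mt-Co1, a complex IV subunit and the most abundant of them, stood at 8061, 7299, 7315 and 8147 against 9400.1, 9120.0 and 7767, and overlapped (0.18). Under the reverse peptide the sums were 49135, 87198, 37002 and 27952 with scramble and 46013, 61318 and 62866 in the libraries labelled anti-Hsf1, which overlapped widely, and the median was 0.32. The median without the 3 libraries was 0.68, with 13 of 13 positive.

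Nuclear genes of the respiratory chain, whose products join the same complexes, had 17 of 30 positive changes and a median of 0.04, and 4 genes did not overlap in the higher and 2 in the lower direction, against 4.31% and 4.21% of all genes. With the 3 libraries left out, 25 of 30 were positive and the median was 0.20. Atp5k, a small subunit of ATP synthase named after its values were seen, stood at 18.3, 27, 12.2 and 13.7 scaled TPM against 98.6, 86.9 and 33.4 (1.90, SE 0.428, adjusted p 0.255). Atp5b, the catalytic subunit of the same enzyme, stood at 577, 684, 808 and 831 against 685, 661 and 669 (-0.09).

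Cytosolic ribosomal proteins of the small subunit had 26 of 30 positive changes (median 0.18) and those of the large subunit 25 of 35 (median 0.13). There were 0 calls by limma, and 4 and 2 genes were higher at an unadjusted p below 0.05, where 4.9% of all genes were. Groups did not overlap in the higher direction for 2 of 30 and 4 of 35, where 4.31% of all genes did so. Among these Rps20 stood at 75.1, 81.2, 86.0 and 87.9 scaled TPM against 175, 155 and 109 (0.79, adjusted p 0.216). Rps4x stood at 1007, 1124, 1302 and 1281 against 1271, 1156 and 1168, and overlapped. The medians with the reverse peptide were -0.21 and -0.26, and without the 3 libraries, with amyloid beta, 0.37 and 0.31.

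The exon lengths of the genes moved with these counts. Protein-coding genes were divided into 4 equal groups by the total length of their annotated exons, with overlapping exons merged. Of all of them 4.41% did not overlap in the higher and 4.69% in the lower direction. In the group of the shortest exon length these shares were 7.43% and 2.21%. Over the next groups they were 4.53% and 3.77%, 3.51% and 5.65%, and 2.17% and 7.14%. Median changes ran from 0.05 in the shortest to -0.04 in the longest group, against -0.10 and 0.04 with the reverse peptide. Mitochondrial transfer RNAs had a median of 0.69, with 4 of 22 not overlapping in the higher direction. Processed pseudogenes had 6.53% higher and 3.86% lower, against 4.31% and 4.21% of all genes. The part of length in the ribosomal protein and mitochondrial changes was not tested.

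Interferon-stimulated genes, the antiviral set that also answers to foreign nucleic acid, had 20 of 23 positive changes and a median of 0.37. There were 0 calls by limma, and 7 genes were higher at an unadjusted p below 0.05, where 4.9% of all genes were. Isg15, Gbp2, Gbp3, Irf9 and Xaf1 did not overlap in the higher direction, 5 of 23 where 4.31% of all genes did. Isg15, a ubiquitin-like modifier named after its values were seen, stood at 7.76, 12.7, 8.79 and 13.6 scaled TPM against 19, 23.3 and 16 (0.82, SE 0.232, adjusted p 0.413). Irf1, a transcription factor of the pathway, stood at 42.0, 67.4, 31.6 and 34.8 against 52.7, 49.9 and 54.3, and overlapped. The summed level of the list was 400, 453, 275 and 291 under scramble and 437, 445 and 455 in the libraries labelled anti-Hsf1, so that scramble 2 lay among the latter and scramble 3 and 4 lowest. The median was 0.31 with the reverse peptide and 0.19 without the 3 libraries.

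Lysosome and autophagy genes had 15 of 20 positive changes (median 0.15), and Ctsa, Tfeb and Wipi1 did not overlap in the higher direction, 3 of 20 where 4.31% of all genes did. The median was 0.04 without the 3 libraries and -0.02 with the reverse peptide. Lamp1, a lysosomal membrane protein, stood at 306, 326, 255 and 264 scaled TPM against 306, 309.97 and 320.0. Cholesterol synthesis genes had 17 of 23 negative changes (median -0.14), 3 of them without overlap, where 4.21% of all genes were lower in that way. Leaving out the 3 libraries, 13 of 23 were negative and the median was -0.03. Genes of App processing and of Alzheimer's disease had 12 of 16 negative changes with a median of -0.05. App, the precursor of amyloid beta, stood at 88.0, 136, 116 and 117 against 91.2, 96.7 and 137 (-0.08, adjusted p 0.877). Cell cycle genes (median -0.04), proteasome subunits (-0.08), Polycomb repressive complex 2 (-0.08), apoptosis genes (-0.05), hypoxia-response genes (-0.12), nuclear long noncoding RNAs (-0.25) and nucleic acid sensors (-0.02) gave 0 calls by limma on scaled TPM. Each held between 0 and 2 genes at an unadjusted p below 0.05, where 4.9% of all genes were higher and 4.15% lower. Those with 2 had 1 higher and 1 lower, of 9 nuclear long noncoding RNAs and of 27 proteasome subunits.

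Of the genes next in order of p, none of which was called, most were higher. Sub1 (ENSMUSG00000022205, chr15:11981339-11996983), a transcription coactivator that binds single-stranded DNA, stood at 28.8, 25.2, 26 and 26.8 scaled TPM in scramble 1 to 4 and at 57.1, 59.8 and 46.1 in anti-Hsf1 1 to 3. Its scramble libraries lay close together, including those that stand apart, and its change was 0.99 (SE 0.149, adjusted p 0.0501), 0.98 without the 3 libraries and 0.28 with the reverse peptide. Phf21b, a PHD finger protein, stood at 10.4, 9.41, 9.27 and 12.1 against 20.4, 16.4 and 19.1 (0.80, adjusted p 0.199). D5Ertd579e, an uncharacterised protein-coding gene, was the lower one among them, at 38.7, 37.2, 38.7 and 38.3 scaled TPM against 23.2, 25.3 and 26.6 (-0.60, SE 0.106, adjusted p 0.122). Rpl36-ps2, a pseudogene of a ribosomal protein gene, had a change of 0.93 (adjusted p 0.164), and 5 further predicted genes were higher without overlap.

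A locus within Neat1, the long noncoding RNA of paraspeckles, was named after its values were seen. Gm27505, annotated as a miscellaneous RNA at chr19:5844638-5844747, lies in an exon of Neat1 on the same strand, and how reads were divided between them is uncertain. It stood at 1334, 277, 1528 and 1246 scaled TPM in scramble 1 to 4 and at 2.15, 1.91 and 3.25 in anti-Hsf1 1 to 3. With the reverse peptide it was at 1089 and 1299 in scramble 1 and 4, at 1.96 and 1.92 in scramble 2 and 3, and at 1.70, 1.76 and 1.68 in the libraries labelled anti-Hsf1. High values thus occurred in 6 of 8 scramble libraries and in 0 of 6 labelled anti-Hsf1. The change with amyloid beta was -8.08 scaled (SE 1.87, adjusted p 0.275), and on TPM as deposited Gm27505 fell by 8.64 (adjusted p 0.00354). Neat1 itself stood at 387, 296, 333 and 237 against 302, 301 and 293 (-0.04).

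Whether the change with amyloid beta differed from that with the reverse peptide was tested as an interaction. On scaled TPM limma called 0 of 16950 genes, with 881 (5.2%) at an unadjusted p below 0.05. The reverse peptide contrast alone gave 0 calls and 602 genes (3.55%) at an unadjusted p below 0.05. On TPM as deposited the interaction called 4435 genes (26.2%), 4425 of them (26.1%) more negative with amyloid beta, alongside the difference in composition described above. Without the 3 libraries that stand apart, a choice made after the values were seen, the scaled interaction called 4 genes. These were the copies Gm25911, Gm24187 and Gm24270 together with Praf2, a membrane protein of the secretory pathway. Praf2, named after its values were seen, stood at 9.24, 8.15, 38.2 and 39.1 scaled TPM in scramble 1 to 4 and at 36.3, 39.9 and 24.5 in anti-Hsf1 1 to 3. Its libraries with the reverse peptide lay between 31.3 and 44.8, so scramble 1 and 2 with amyloid beta were the low ones. With all libraries its change was 0.79 (adjusted p 0.565), and without the 3 it was 1.80 (adjusted p 0.015).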

How the data were processed

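Gene abundance tables of 14 HT-22 long-RNA libraries were used, 1 deposited file per library. Per the file headers they give Coverage, FPKM and TPM. The deposited TPM sums to between 999842 and 999917 per library. The coverage signal and FPKM of the deposited tables were used only for relative depth, the most frequent ratio of the 2. They do not give read numbers, and no count model was run. Per the submitters' processing notes, tools included HISAT2 2.1.0, StringTie 1.3.4d, BWA 0.7.17, bedtools 2.26.0, cutadapt 1.18 and FastQC, with mm10 and GRCm38 as builds. Which step each served is not stated there. Of 53975 gene identifiers, 53934 are in GENCODE M21, 98.2% of them at the same coordinates.

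TPM was summed per gene identifier, and genes with a mean of at least 1 TPM over the 7 amyloid beta libraries were kept. limma 3.58.1 (R 4.3.3; trend, robust) was fitted to log2(TPM + 1) of all 14 libraries in 4 groups, both as deposited and divided by median of ratios factors, with Benjamini-Hochberg adjustment at 0.05. It was tested on simulated data with noise drawn independently for each library, a setting without libraries that deviate together. Log2 changes understate those of low genes. Single values were compared with an exact permutation test, two-sided. Members and lists were chosen with earlier results of these data known. Named were Hsf1, called genes with a mean of at least 5 TPM in the higher group and no overlap, per list up to 4 called or else up to 2 abundant members, the 10 next by p, and genes said to be named after their values were seen. Of predicted genes at most 4 were named. The sequence of 1 called locus is not reported here. Alternatives covered the pseudocount, filter, scaling, weights, replicate block and left-out libraries.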

Additional observations from a re-analysis of the deposited data

Results flagged for a closer look

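4 values of single scramble libraries with amyloid beta lay far from the rest of their group, among 94 genes examined. Chance alone sets about 1 group in 20 apart in this way. Gm25911 was at 10.6 scaled TPM in scramble 2, with 1.95 as the next value, and this library was still below all 3 libraries labelled anti-Hsf1. Mir6236 was at 3.49 in scramble 1 and listed at 0 in the other 3. A processed pseudogene on chromosome 4 was at 13.2 in scramble 2, with 4.92 as the next value. Top2a, the DNA topoisomerase of dividing cells, was at 422 in scramble 3, below 462 as the next value. The change on TPM as deposited differed between the peptides for 4435 genes by limma's interaction test, and for 0 after scaling.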

How the results depend on the processing

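The 4 calls on scaled TPM became 0 with a pseudocount of 0.1, with no filter, or without trend and robust moderation, 1 with quantile normalisation and 1932 with array weights (793 higher, 1139 lower), which weighted scramble 1 and 2 at 0.307 and 0.374 and scramble 3 and 4 at 1.34 and 1.24. Leaving out 1 library at a time gave 0 to 16 calls: 0 without scramble 1, 3 or 4 or anti-Hsf1 1, 1 without anti-Hsf1 2, 6 without scramble 2 and 16 without anti-Hsf1 3 (15 higher, 1 lower). The 1 call without anti-Hsf1 2 was none of the 4 genes. The count was 5 at a mean TPM of at least 5 and with protein-coding scaling, 6 with the 7 amyloid beta libraries alone (4 higher, 2 lower), and 4 with TMM factors and, chosen after seeing the data, without the 3 libraries that stand apart. Over 18 alternatives Gm25911 was called in 10, Gm24187 in 7 and Gm24270 and Mir6236 in 6 each, with changes above 4 throughout and adjusted p-values up to 0.257. The 8803 calls on deposited TPM ranged from 5938 to 9349 without 1 library.

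The interaction on scaled TPM called 10 genes with array weights, 4 without the 3 libraries and 0 to 3 without 1 library. On deposited TPM it called 8547 with array weights and 731 to 6221 without 1 library, the lowest without anti-Hsf1 1, and 1221, 1539, 2381 and 2441 without reverse anti-Hsf1 1, anti-Hsf1 3, reverse scramble 1 and reverse anti-Hsf1 2. Without 1 library the deposited Hsf1 change was -1.27 to -0.94, the difference in protein-coding share -25.4 to -19.4 and that in Gm23935 share 12.2 to 26.6 percentage points. The cause of these shifts was not tested.

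Same-numbered libraries of different groups did not all deviate together (19 pairs, correlations -0.22 to 0.58), and 0 of 12 libraries were closest to their own number. That count left out scramble 4 with either peptide, the pair that correlated most, at 0.58. The numbers were not read as pairs. With the replicate block the scaled count was 2, the deposited count 9212, and the interaction counts 0 and 4846. Of the values of named genes, 6723 kept their side of the threshold with no change of sign beyond 1 SE, 65 that were not called changed sign by more, 203 passed the threshold only under an alternative and 337 no longer passed.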
